A study of Mus musculus with 8 samples.

Results

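Collagens and other connective tissue matrix genes were examined in mouse dorsal root ganglia, 24 h after sciatic nerve crush. The set holds every gene of the deposited count table whose symbol is Col, digits, a, digits, which gives 44 collagens, and 8 further genes, Dcn, Lum, Fn1, Sparc, Fbln1, Mfap5, Postn and Pdgfra. These 52 genes are taken from 24033 rows that name a gene, and the rule that picks them uses no measured value. That rule was set with earlier results of these data known. Dorsal root ganglia hold the cell bodies of sensory neurons, and ganglia of the levels L4 to L6 send axons into the sciatic nerve. In each mouse a single sciatic nerve was crushed. The injury group consists of 4 libraries of ganglia from the crushed side, and the naive group of 4 libraries of ganglia from the opposite, uncrushed side, so that the naive ganglia are contralateral controls and not ganglia of untouched mice. Each repeat used ganglia of 2 mice, and the labels call the tissue dissociated; strain, sex and age are not given in the labels used here. Libraries were made with a 3′-end protocol (QuantSeq REV), which reads the transcript end next to the poly(A) tail.

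Collagens are secreted proteins of 3 chains wound into a triple helix. Fibrillar collagens build the fibres of the endoneurium and epineurium, the connective tissue around nerve fibres and nerves. Type IV collagen forms the network of basement membranes, which surround vessels, Schwann cells and the satellite glia that wrap each sensory neuron. Fibril-associated collagens sit on the surface of fibres, and small proteoglycans such as decorin bind them. Fibroblasts make much of this matrix, and Schwann cells, perineurial cells and vessel cells contribute to it. After a nerve injury, matrix is laid down at the lesion and in the distal nerve over days to weeks; the ganglion lies at a distance from the lesion.

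The unit is CPM, a gene's counts relative to the total of its library, with totals adjusted by TMM, a method that sets the typical gene equal between libraries. Library totals ranged from 15422482 to 29368107 counts, and 3 counts in a library, the limit that a count of 0 allows, correspond to 0.102 to 0.195 CPM before TMM scaling. That limit covers counting error only, since reads were counted without molecular identifiers. Each transcript gives its 3′ end in this protocol, so CPM values were not divided by transcript length. Differences are log2 fold changes, injury minus naive, with a standard error (SE), from edgeR's quasi-likelihood test; a gene was called changed at a Benjamini-Hochberg adjusted p under 0.05 over all 13639 genes tested. Naive replicate 1 stood apart from the other libraries on the second principal component (46.6, against -21.1 to 11.3). The labels do not say that the libraries of a group came from separate surgeries, so the p-values measure the spread between these samples.

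Of the 52 genes, 38 passed the low-count filter and were tested, and 2 of these rose on the injured side, Col16a1 and Pdgfra, while 0 fell. Among all genes tested, 8.12% were called higher and 4.47% lower, 1108 and 609 genes; with library totals in place of TMM the numbers were 888 higher and 1001 lower, and Col16a1 and Pdgfra were the genes of the set called. The 2 genes are 5.26% of the 38, against 12.6% of all genes called in either direction. No gene of the set was called lower by edgeR's test, while 2 had an unadjusted p under 0.05 with a lower mean after injury, Col1a1 and Col27a1, where 11.2% of all genes did. With an unadjusted p under 0.05 and a higher mean there were 7, against 13.4% of all genes: Col16a1, Pdgfra, Col18a1, Postn, Sparc, Col4a1 and Col4a2. DESeq2 and limma-voom each called Col16a1 and Pdgfra higher and 0 genes of the set lower. The log2 fold changes of the 38 ran from -0.64 to 1.16 with a median of 0.05, beside -0.004 for all genes. With TMM 21 were above 0 and 17 below; library totals moved the median of all genes to -0.057 and left 19 above 0. For 21 of the 38 genes the 95% interval of the fold change lay within 2-fold in both directions. In RNA of dissociated ganglia, a change in the number of cells of a type and a change in RNA per cell cannot be told apart. The part of the dissociation in these values was not tested.

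**Figure D1:**
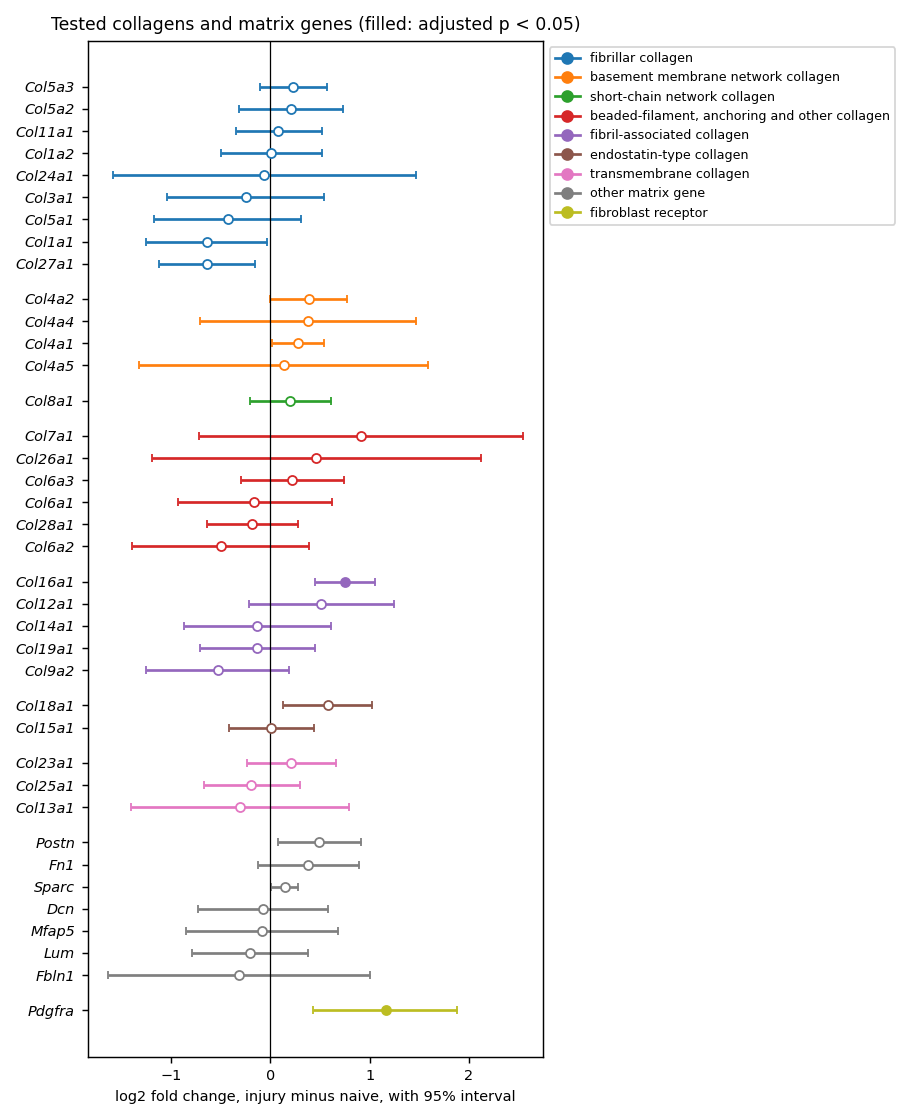
Log2 fold change, injury minus naive, of the 38 tested collagens and matrix genes (horizontal axis) with 95% intervals from edgeR's quasi-likelihood fit, 4 libraries a group; colours mark the kind of gene and filled points an adjusted p under 0.05. Col16a1 at 0.75 and Pdgfra at 1.16 are the filled points, and for most other genes the interval includes 0.

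The promoter windows that follow bear on the genes described next and are shown so that the starts can be compared: those of the called genes Col16a1 and Pdgfra, and the start shared by Col4a1 and Col4a2. They run from 250 bases before to 50 after the gene start in RefSeq (GRCm38.p6), 5′ to 3′ on the gene's strand, at chr4:130047590-130047889 (plus strand), chr5:75152001-75152300 (plus strand) and chr8:11312555-11312854 (plus strand). Capitals mark matches, on either strand, to CCAAT (the CCAAT box) and GGGCGG (the GC box); TGANTCA (AP-1) and TATAAA (the TATA box) were also searched and had no match in these windows.
Col16a1: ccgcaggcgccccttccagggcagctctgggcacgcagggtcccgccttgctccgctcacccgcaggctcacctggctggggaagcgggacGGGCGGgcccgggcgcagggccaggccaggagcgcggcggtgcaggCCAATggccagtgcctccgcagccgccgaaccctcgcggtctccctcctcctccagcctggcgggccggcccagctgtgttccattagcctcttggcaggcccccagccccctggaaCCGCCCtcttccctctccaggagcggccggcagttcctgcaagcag
Pdgfra: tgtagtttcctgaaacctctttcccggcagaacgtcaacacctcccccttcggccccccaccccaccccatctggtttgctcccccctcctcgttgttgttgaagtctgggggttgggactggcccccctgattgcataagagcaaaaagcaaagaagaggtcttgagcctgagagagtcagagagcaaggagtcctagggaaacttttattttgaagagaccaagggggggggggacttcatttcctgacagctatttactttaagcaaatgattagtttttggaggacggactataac
Col4a2: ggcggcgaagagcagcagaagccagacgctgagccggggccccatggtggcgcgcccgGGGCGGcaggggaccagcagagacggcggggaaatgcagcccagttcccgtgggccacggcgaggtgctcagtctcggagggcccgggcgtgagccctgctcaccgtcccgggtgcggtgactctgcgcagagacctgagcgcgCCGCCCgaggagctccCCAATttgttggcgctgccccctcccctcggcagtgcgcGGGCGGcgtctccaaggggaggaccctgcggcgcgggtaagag
The Col16a1 window held 1 CCAAT box and 2 GC boxes, the Col4a2 window 1 and 3, and the Pdgfra window none of the 4 motifs. Among 32851 RefSeq windows of this length, 37.4% held CCAAT, 35.7% GGGCGG, 7.8% TGANTCA and 13.6% TATAAA. RefSeq gave 44 windows for 39 of the 52 genes; 31.8% of these held CCAAT, 54.5% GGGCGG, 2.3% TGANTCA and 13.6% TATAAA. The shares are a description. A match describes letters in a window and is not a binding site. The start of Col4a1 lies 21 bases downstream of the Col4a2 start on the opposite strand, so that both genes are read outwards from overlapping start regions.

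Col16a1 (chromosome 4, 130047840 to 130099283 on GRCm38), a fibril-associated collagen found on the surface of fibrils and near basement membranes, rose on the injured side. Its level was 33.8, 44.6, 33.6 and 32.1 CPM in naive replicates 1 to 4 and 50.2, 58.99, 52.2 and 81.4 CPM in injury replicates 1 to 4. Every injury library lay above every naive library, and injury replicate 4 was the highest. The mean went from 36.00 ± 5.76 to 60.7 ± 14.3 CPM (SD, n = 4), 1.68-fold, with a log2 fold change of 0.75 ± 0.14 (SE) and an edgeR adjusted p of 0.00138. The gene was called under all 16 alternative settings, with adjusted p between 5.74e-06 and 0.0120; without injury replicate 4 the log2 fold change was 0.58. GENCODE lists no other gene overlapping Col16a1.

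The other fibril-associated collagens did not pass the test. Col12a1, which binds type I fibrils, measured 2.26, 3.64, 1.96 and 1.88 CPM in the naive and 5.13, 3.54, 2.88 and 2.24 CPM in the injury libraries, with overlapping groups (log2 fold change 0.51 ± 0.35, edgeR adjusted p = 0.420). Col14a1, another fibril-binding collagen, measured 5.90, 3.37, 2.54 and 2.79 CPM in the naive and 1.81, 5.54, 2.82 and 3.03 CPM in the injury libraries. Its highest library was naive replicate 1 and its lowest injury replicate 1 (edgeR adjusted p = 0.883). Col9a2, a chain of cartilage type IX collagen, measured 3.83, 4.14, 2.90 and 3.23 CPM in the naive and 3.81, 2.70, 1.49 and 1.70 CPM in the injury libraries. Injury replicates 2, 3 and 4 lay below all naive libraries and injury replicate 1 within them (log2 fold change -0.53 ± 0.35, edgeR adjusted p = 0.387). Col19a1 measured 4.27, 5.74, 5.71 and 3.53 CPM in the naive and 2.92, 5.77, 5.34 and 3.51 CPM in the injury libraries, with near-equal values in replicates 2 and 4 of both groups (edgeR adjusted p = 0.842). Col9a1, Col9a3, Col20a1 and Col22a1 were below the low-count filter. The summed level of the class was 43.8 to 62.2 CPM in the naive and 64.8 to 92.3 CPM in the injury libraries, and Col16a1 made up most of it in every library.

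Pdgfra (chromosome 5, 75152292 to 75198215), the alpha receptor for platelet-derived growth factor and a marker of fibroblasts, rose from a low level. It stood at 1.25, 1.41, 1.61 and 2.12 CPM in naive replicates 1 to 4 and at 3.10, 3.68, 3.95 and 3.69 CPM in injury replicates 1 to 4. These are 20 to 63 counts in a naive library and 61 to 79 in an injury library, and the groups did not overlap. The change was 2.23-fold, from 1.60 ± 0.376 to 3.61 ± 0.362 CPM (log2 fold change 1.16 ± 0.35, edgeR adjusted p = 0.0287). The gene no longer passed on leaving out naive replicate 2, naive replicate 3, or any injury library other than injury replicate 1 (adjusted p 0.0595 to 0.0750), with log2 fold changes of 1.10 to 1.15; with a minimum mean of 5 CPM the gene was not tested. GENCODE places Gm42802 and Gm42803 on the opposite strand within Pdgfra. The sources used here do not say whether counting used strand, so its count may include their reads.

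The 6 genes of the PDGF list, chosen apart from the set, were 4 ligands, the beta receptor Pdgfrb and Pdgfrl; 5 were tested and 0 passed edgeR's test. DESeq2 and limma-voom also gave 0, and 0 had an unadjusted edgeR p below 0.05. Pdgfa, a ligand of the alpha receptor, measured 62.7 ± 6.50 and 67.6 ± 2.64 CPM, and Pdgfrb, which marks mural cells and fibroblasts, 9.15 ± 1.74 and 8.47 ± 4.09 CPM.

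Of 8 fibroblast markers outside the set 7 were tested, and edgeR called 0 (0 at an unadjusted p under 0.05; DESeq2 0; limma-voom 1, Ly6a higher, also called with the replicate block, a term for the replicate number that an injury and a naive library share). Their summed level was 237 to 298 CPM in the naive and 266 to 366 CPM in the injury libraries. Most of that sum came from Cygb, Apod, Cd34 and Ly6a, which glia or endothelium also express. The more restricted Dpt, Pi16 and Clec3b were low. Dpt was at most 0.606 CPM in any library, Pi16 had means of 1.74 ± 0.933 and 0.810 ± 0.724 CPM, and Clec3b 0.946 ± 0.261 and 1.61 ± 0.769 CPM. Of 3 perineurial markers, Slc2a1, a glucose transporter used by many cell types, rose from 34.7 ± 5.84 to 74.3 ± 11.7 CPM (edgeR adjusted p = 2.04e-06; Gm12868 overlaps its 3′ end on the opposite strand, so its count is uncertain), while Cldn1 had 8.22 ± 2.37 and 6.30 ± 1.70 CPM and Itgb4 4.22 ± 1.47 and 5.55 ± 1.23 CPM. The part of these cells in the rises of Col16a1 and Pdgfra was not tested.

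**Figure D2:**
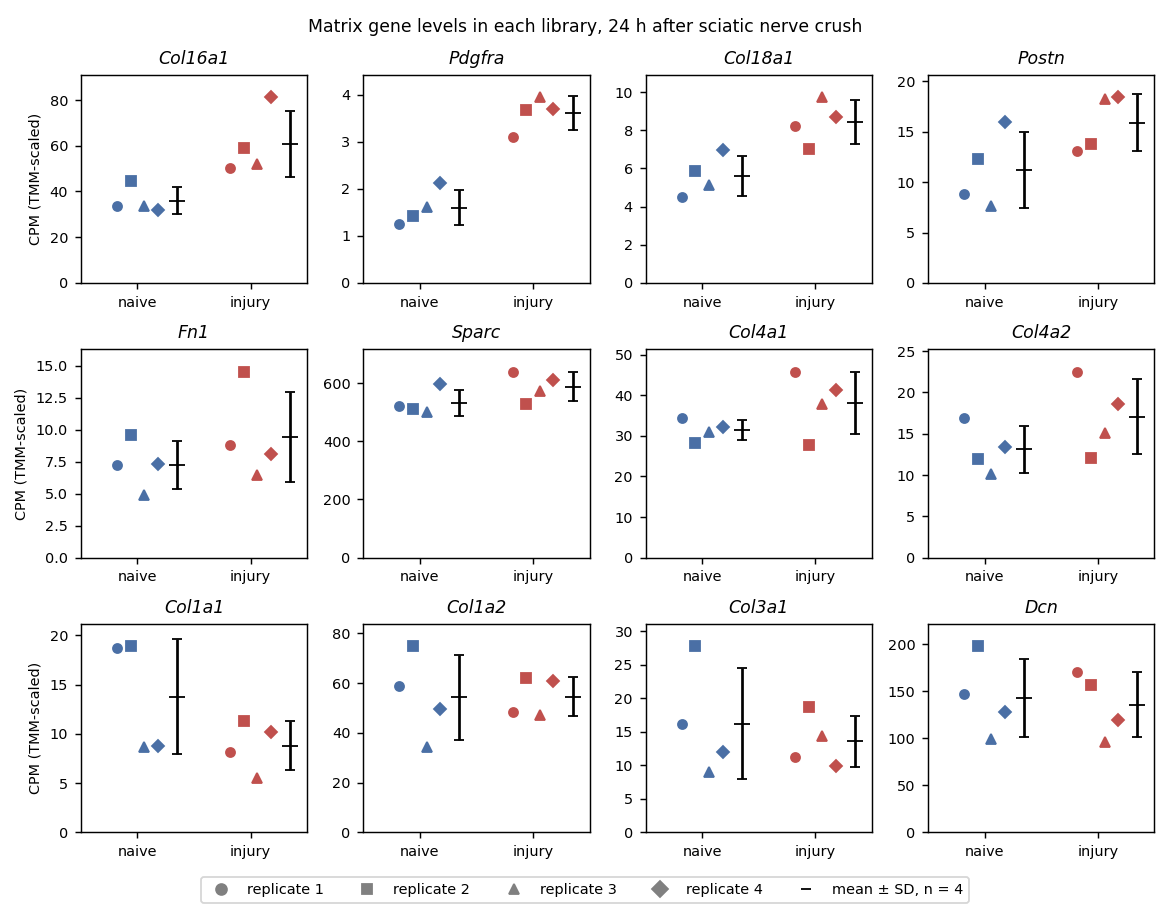
CPM (vertical axes, from 0) of 12 matrix genes in each library, by group; the symbol gives the replicate number, and bars give mean ± SD of 4 libraries. Naive and injury libraries separate for Col16a1, Pdgfra and Col18a1 and overlap for the other 9 genes.

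Col18a1 was the third gene of the set whose groups did not overlap; 9.80% of all genes tested had every injury library above every naive one, and 3 of the 38 genes here did; 7.02% had every injury library below, and 0 of the 38 did. It encodes a basement membrane collagen whose end fragment is endostatin. It measured 4.52, 5.87, 5.13 and 6.96 CPM in the naive and 8.23, 7.03, 9.76 and 8.72 CPM in the injury libraries, a near touch between naive replicate 4 and injury replicate 2. The log2 fold change of 0.58 ± 0.21 missed the threshold (edgeR adjusted p = 0.0824, between 0.0561 and 0.215 over the alternatives). The gene's 3′ end on chromosome 10 overlaps Slc19a1 on the opposite strand, so its count is uncertain. Col15a1, the related collagen of vessel and nerve basement membranes, measured 8.41, 9.79, 7.01 and 12.8 CPM in the naive and 8.50, 9.78, 7.70 and 12.4 CPM in the injury libraries. Libraries of the same number were close in both groups, and the 95% interval of the log2 fold change ran from -0.42 to 0.44.

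The main chains of basement membrane type IV collagen, Col4a1 (chromosome 8, 11198423 to 11312826) and Col4a2 (chromosome 8, 11312805 to 11449287), had higher means after injury without passing the test. Col4a1 measured 34.3, 28.3, 30.9 and 32.1 CPM in naive replicates 1 to 4 and 45.8, 27.8, 37.7 and 41.3 CPM in injury replicates 1 to 4. Col4a2 measured 16.9, 11.97, 10.1 and 13.4 CPM in the naive and 22.5, 12.1, 15.1 and 18.6 CPM in the injury libraries. For both genes injury replicate 1 was the highest of all libraries. Injury replicate 2 lay within the naive range for Col4a2 and just below it for Col4a1. The log2 fold changes were 0.28 ± 0.13 and 0.39 ± 0.19 (edgeR adjusted p = 0.163 and 0.197). Without injury replicate 2, Col4a1 passed (log2 fold change 0.41, adjusted p = 0.0258), with a range over the alternatives of 0.0258 to 0.425, and Col4a2 passed under none of them. The counts of Col4a1 were 2.03 to 3.05 times those of Col4a2 in the naive libraries and 2.04 to 2.50 times in the injury libraries.

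Markers of vessel endothelium, a source of type IV collagen, varied between the same libraries. The summed level of 6 endothelial markers was 192, 125, 135 and 133 CPM in naive replicates 1 to 4 and 244, 149.6, 186 and 145 CPM in injury replicates 1 to 4, with injury replicate 1 again the highest. edgeR called 0 of the 6 (0 at an unadjusted p under 0.05; DESeq2 and limma-voom 0), and with the replicate block 2 were called higher, Pecam1 (adjusted p = 0.0316) and Ly6c1 (0.00207). The part of endothelial cells in the Col4a1 and Col4a2 values was not tested. GENCODE places Gm15418 across the 3′ end of Col4a1 on the opposite strand, so that its count is uncertain.

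Of 8 Schwann cell markers, all tested, edgeR called 0 (1 at an unadjusted p under 0.05, Mag; DESeq2 and limma-voom 0), but 7 had negative log2 fold changes, with a median of -0.52. Their summed level, most of it from Pmp22, was 745 to 1105 CPM in the naive and 720.3 to 925 CPM in the injury libraries. The part of Schwann cells in the values of the matrix genes was not tested.

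The minor chains of type IV collagen, known from kidney and other specialised basement membranes, were low. Col4a4 measured 0.627, 1.46, 2.54 and 0.707 CPM in the naive and 2.39, 1.44, 1.75 and 1.39 CPM in the injury libraries. Col4a5 measured 0.627, 1.32, 0.446 and 0.942 CPM in the naive and 0.531, 1.68, 0.103 and 1.39 CPM in the injury libraries. Both overlapped between groups (edgeR adjusted p = 0.731 and 0.941), and Col4a3 and Col4a6 were below the low-count filter. Col8a1, a network collagen of vessel walls, measured 10.8, 8.56, 8.48 and 9.62 CPM in the naive and 10.8, 10.5, 7.29 and 14.3 CPM in the injury libraries. The injury libraries held both its lowest and its highest value (edgeR adjusted p = 0.610).

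Of 11 fibrillar collagens, 9 were tested and 0 passed edgeR's test. Col1a1 and Col27a1 had an unadjusted p below 0.05, both with lower means after injury, and DESeq2 and limma-voom gave 0 calls. Col1a2 (chromosome 6, 4504814 to 4541544), a chain of type I collagen, measured 58.7, 74.8, 34.2 and 49.5 CPM in the naive and 48.5, 62.02, 47.1 and 60.9 CPM in the injury libraries. The injury values lay inside the naive range, and the log2 fold change was 0.01, with a 95% interval from -0.50 to 0.52. Col1a1 (chromosome 11, 94936224 to 94953042), its partner chain, measured 18.8, 18.9, 8.70 and 8.78 CPM in the naive and 8.19, 11.3, 5.55 and 10.2 CPM in the injury libraries. Naive replicates 1 and 2 stood well above the rest, while naive replicates 3 and 4 lay among the injury libraries. The log2 fold change of -0.64 ± 0.29 did not pass (edgeR adjusted p = 0.180, between 0.0517 and 0.498 over the alternatives). The value of 0.0517 came from edgeR with the replicate block, where the log2 fold change was -0.6.

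Col3a1 (chromosome 1, 45311538 to 45349706), the type III chain of fine fibres, measured 16.1, 27.7, 8.93 and 11.9 CPM in the naive and 11.2, 18.6, 14.4 and 9.93 CPM in the injury libraries, with full overlap (log2 fold change -0.25 ± 0.35, edgeR adjusted p = 0.744). GENCODE lists Gm47302 on the same strand within Col3a1 and Gm43921 within Col1a2. The type V chains regulate fibril thickness. Col5a3 measured 10.4, 18.3, 14.5 and 14.1 CPM in the naive and 18.1, 14.1, 17.1 and 18.2 CPM in the injury libraries, with the highest value in the naive group (log2 fold change 0.23 ± 0.16, edgeR adjusted p = 0.417). Col5a1 had 3.60 ± 1.65 and 2.68 ± 0.863 CPM and Col5a2 5.02 ± 0.363 and 5.78 ± 1.72 CPM. Col11a1, of type XI collagen, had 9.04 ± 1.95 and 9.56 ± 2.37 CPM, and Col24a1, a fibrillar collagen known from bone, 0.806 ± 0.688 and 0.774 ± 0.457 CPM. Col27a1 (chromosome 4, 63214004 to 63334991), a fibrillar collagen known from cartilage, measured 9.73, 10.97, 8.30 and 6.22 CPM in the naive and 5.84, 4.38, 7.65 and 4.66 CPM in the injury libraries. Its groups overlapped through naive replicate 4 and injury replicate 3. The log2 fold change was -0.64 ± 0.23 (edgeR adjusted p = 0.0778). It passed without naive replicate 4 (0.0402) or injury replicate 3 (0.0313), and the highest adjusted p over the alternatives was 0.245.

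Bone and cartilage are rich in type I and type II collagen. Of 13 markers of these tissues, Matn1, Bglap, Bglap2 and Sp7 had no count in any library, and edgeR called 0 of the 6 tested. At an unadjusted edgeR p under 0.05 there were 2, both lower. DESeq2 called 1, Ibsp, lower, and limma-voom 0. For 2 of the 6 every injury library lay below every naive one, against 7.02% of all genes tested. The summed level of the 13 markers, most of it from Hapln1 and Lect1 (chondromodulin), was 38.5 to 52.4 CPM in the naive and 32.3 to 48.00 CPM in the injury libraries. Col2a1 itself, the cartilage collagen, had 4 counts in all naive and 19 in all injury libraries together. Leptomeningeal markers summed to 3.20 to 12.5 CPM in the naive and 2.88 to 8.24 CPM in the injury libraries, and naive replicate 2 was the highest of them. The summed markers of skeletal muscle stayed between 2.52 and 4.75 CPM, those of adipocytes between 1.08 and 8.35 CPM and those of red blood cells between 2.45 and 14.02 CPM. The part of these tissues in the values of the collagens was not tested.

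Type VI collagen forms beaded filaments around cells. Col6a1 measured 5.90, 6.24, 2.01 and 2.19 CPM in the naive and 2.26, 5.45, 3.23 and 3.57 CPM in the injury libraries. Col6a2 measured 8.16, 5.33, 1.92 and 2.39 CPM in the naive libraries and ranged from 1.90 to 5.31 CPM in the injury libraries. For both, naive replicates 1 and 2 and injury replicate 2 were the high libraries. Col6a3 measured 16.5, 16.3, 10.9 and 7.44 CPM in the naive and 10.7, 17.4, 11.9 and 19.4 CPM in the injury libraries, again with overlap, and edgeR adjusted p for the 3 chains ran from 0.536 to 0.860. Col28a1, which in mice is expressed by non-myelinating glia of nerves and ganglia, measured 7.28, 7.78, 7.01 and 10.5 CPM in the naive and 4.60, 7.78, 7.96 and 8.54 CPM in the injury libraries. Its injury libraries included the lowest value and a naive library the highest (edgeR adjusted p = 0.696). Col7a1, of anchoring fibrils, measured 0.690, 0.0910, 0.223 and 0.740 CPM in the naive and 0.177, 0.698, 1.18 and 1.27 CPM in the injury libraries, and Col26a1 had 0.508 ± 0.461 and 0.685 ± 0.410 CPM. At these levels the 95% intervals of the fold change reached beyond 4-fold.

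Transmembrane collagens are anchored in the cell membrane and can be shed from it; 3 of 4 were tested and none passed edgeR's test, with 0 at an unadjusted p below 0.05 and 0 by DESeq2 or limma-voom. Col23a1 measured 5.40, 9.29, 7.19 and 10.3 CPM in the naive and 8.63, 7.22, 10.3 and 11.4 CPM in the injury libraries. Col25a1, known from motor innervation of muscle in mice, measured 6.53, 6.05, 7.95 and 5.08 CPM in the naive and 6.64, 4.38, 5.08 and 6.36 CPM in the injury libraries. Col13a1, known from the neuromuscular junction, measured 2.20, 2.28, 1.92 and 1.35 CPM in the naive and 2.08, 0.279, 1.54 and 2.36 CPM in the injury libraries, with injury replicate 2 far below the rest. All 3 overlapped between groups. The edgeR adjusted p of these genes ran from 0.619 to 0.797.

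Among the matrix genes that are not collagens, Sparc was by far the most abundant, with 46.2% to 58.0% of the summed CPM of the set in each library. Sparc (chromosome 11, 55394500 to 55423183) encodes osteonectin, a collagen-binding protein that glia and endothelium also secrete. It measured 520.3, 509, 499 and 595 CPM in the naive and 639, 527, 573 and 611 CPM in the injury libraries. The groups overlapped through naive replicate 4, and the log2 fold change was 0.15 ± 0.06, 1.11-fold (edgeR adjusted p = 0.157). Without naive replicate 4 it was 0.20 (adjusted p = 0.0443), and the highest adjusted p over the alternatives was 0.422. Its SE was the smallest of the set, and the 95% interval of the fold change ran from 1.01 to 1.21.

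Postn (chromosome 3, 54361109 to 54391037), periostin, a matrix protein of healing tissue, measured 8.85, 12.3, 7.63 and 16.02 CPM in the naive and 13.1, 13.8, 18.2 and 18.5 CPM in the injury libraries. Naive replicate 4 lay inside the injury range and the other naive libraries below it. The log2 fold change was 0.49 ± 0.20 (edgeR adjusted p = 0.122). It passed with the replicate block (log2 fold change 0.54, adjusted p = 0.0481), and without naive replicate 4 (0.0199), and the highest adjusted p over the alternatives was 0.352. Fn1, fibronectin, measured 7.22, 9.56, 4.91 and 7.30 CPM in the naive and 8.76, 14.5, 6.42 and 8.05 CPM in the injury libraries, with injury replicate 2 the highest (log2 fold change 0.38 ± 0.24, edgeR adjusted p = 0.369).

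Dcn (chromosome 10, 97479609 to 97518143), the proteoglycan decorin and a marker of fibroblasts, measured 147, 198, 99.6 and 128 CPM in the naive and 171, 157, 96.2 and 119.8 CPM in the injury libraries. The groups overlapped throughout; the lowest library of each group was replicate 3. The log2 fold change was -0.07 ± 0.27, with a 95% interval from -0.73 to 0.58 (edgeR adjusted p = 0.922). Lum, the related proteoglycan lumican, had 4.41 ± 0.921 and 3.82 ± 0.898 CPM. Fbln1, fibulin-1, had 1.59 ± 1.42 and 1.27 ± 0.907 CPM, and Mfap5, a microfibril protein, 4.16 ± 1.79 and 3.91 ± 1.75 CPM. For these 3 genes edgeR adjusted p was 0.734 to 0.933.

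Among the 38 tested genes, 17 had their highest naive level in naive replicate 2 and 21 their lowest in naive replicate 3, while naive replicate 2 was the highest naive library for 24.1% of all genes tested. In the injury group, 13 genes were highest in injury replicate 4 and 12 in injury replicate 2, against 23.7% and 23.9% of all genes tested. No share of all genes was computed for the lowest library. The summed fibrillar collagens were 136, 171, 91.4 and 106 CPM in naive replicates 1 to 4 and 109.9, 129, 109.7 and 127 CPM in injury replicates 1 to 4, so that the naive libraries spanned the injury range. Set against the naive library of the same number, the injury library was higher for 18, 17, 25 and 29 of the 38 genes for numbers 1 to 4. The median of these log2 ratios was -0.04, 0.00, 0.20 and 0.25, beside 0.01, 0.00, 0.00 and 0.00 for all genes (0.5 CPM was added to each level). In all 4 of these ratios, Col4a2, Col16a1, Col18a1, Fn1, Sparc, Postn and Pdgfra were higher and Col27a1 and Col9a2 lower. The share of all genes tested with the same sign in all 4 ratios was not computed, so this list is a description.

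**Figure D3:**
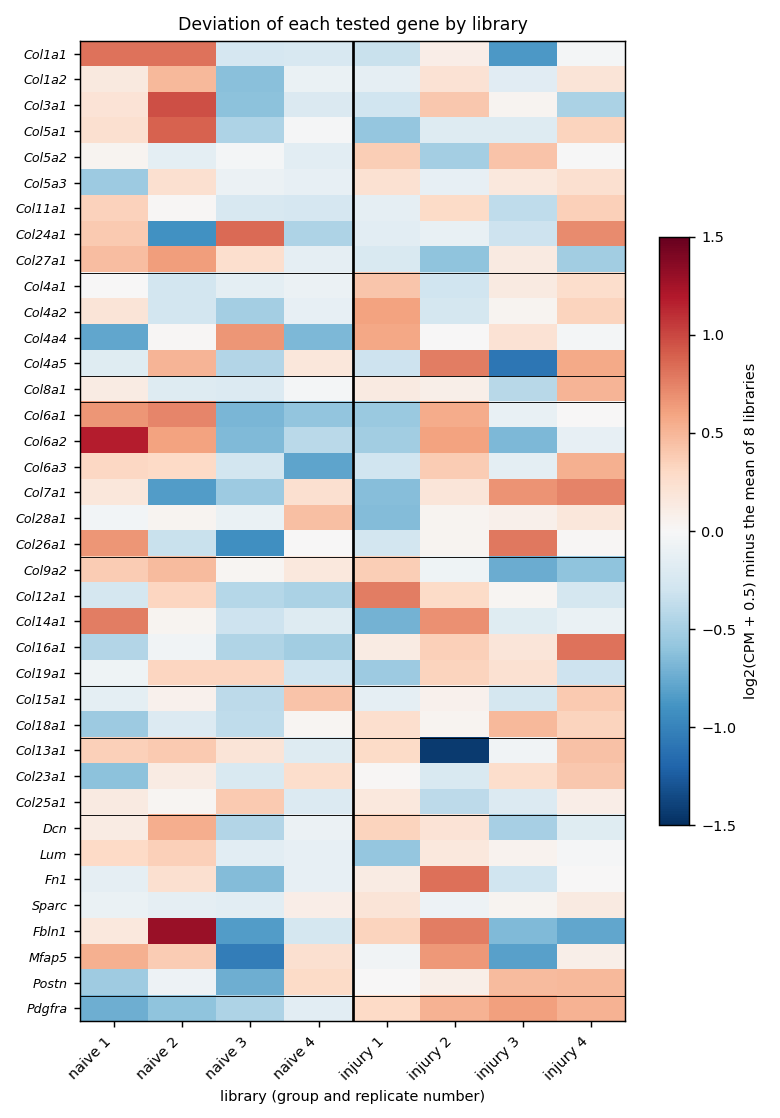
Colour gives log2(CPM + 0.5) of each of the 38 tested genes (rows, ordered by kind of gene) in each library (columns), less the gene's mean over the 8 libraries; the vertical line parts naive from injury. Pdgfra and Col16a1 change colour at that line, while Col1a1, Col6a1 and Col6a2 are high in naive replicates 1 and 2, and Fbln1 in naive replicate 2.

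**Figure D4:**
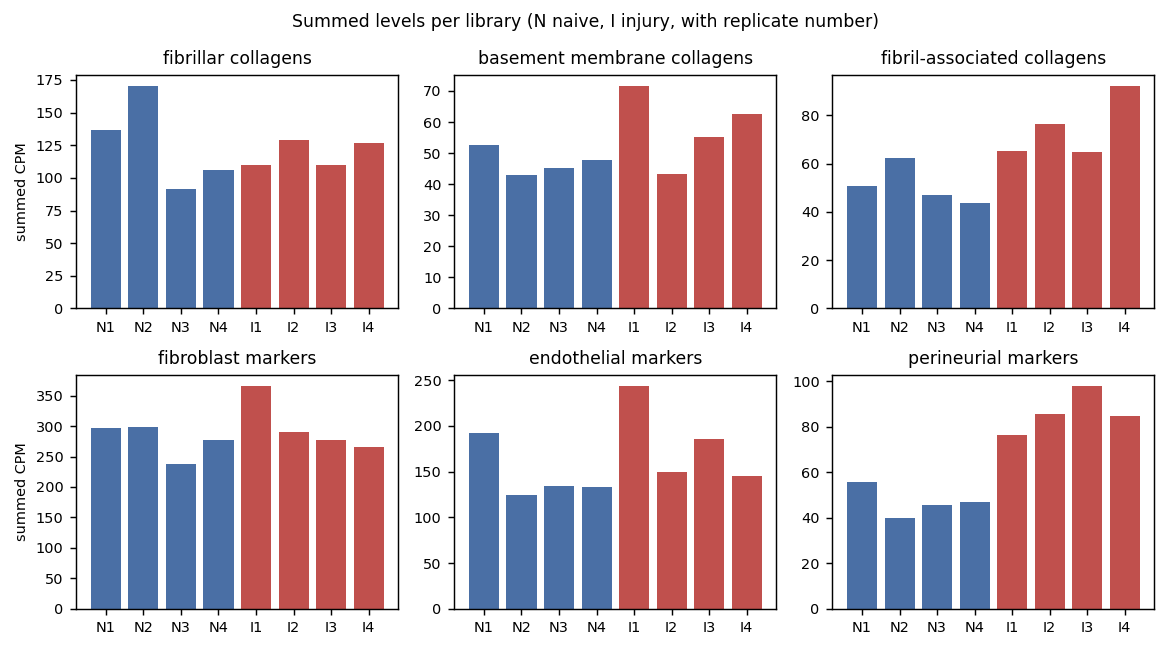
Summed CPM per library of 3 collagen classes (upper row) and 3 marker lists (lower row), naive libraries in blue and injury libraries in red. Fibrillar collagens overlap between groups, while the sums of fibril-associated collagens and of perineurial markers are higher in every injury library. Col16a1 and Slc2a1 make up most of these 2 sums and were the only genes called in them. Of the 5 tested fibril-associated collagens, 2 had log2 fold changes above 0 and 3 below. Of the 3 perineurial markers, 2 were above 0 and 1 below.

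The 14 genes removed by the low-count filter held between 6 and 86 counts in all 8 libraries together, and no gene of the set was at 0 throughout. They were Col2a1, Col11a2, Col4a3, Col4a6, Col8a2, Col10a1, Col6a4, Col6a5, Col6a6, Col9a1, Col9a3, Col20a1, Col22a1 and Col17a1. Several had counts in a single library only: Col9a1 had 16 and Col20a1 14 in injury replicate 1, Col17a1, a collagen of skin hemidesmosomes, had 9 in injury replicate 4, and Col6a6 had 6 in naive replicate 1. Col8a2 had 67 counts in the naive and 19 in the injury libraries, with 59 of the former in naive replicates 1 and 2. In the fit without that filter 0 of the 14 passed; the lowest adjusted p was 0.163, for Col9a1. Col9a1, Col20a1 and Col17a1 had unadjusted edgeR p of 0.0276, 0.0337 and 0.0471 there, each from the counts of a single library.

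Of 29 genes that modify, export, assemble or crosslink collagen, 27 were tested, and 5 rose and 1 fell. That is 22.2% of the 27, against 12.6% of all genes tested. The median log2 fold change of the list was 0.11. Plod3, a lysyl hydroxylase that also adds glucose to collagen, measured 34.6, 41.3, 34.3 and 41.8 CPM in the naive and 61.3, 69.7, 64.7 and 69.3 CPM in the injury libraries, 1.74-fold higher without overlap (edgeR adjusted p = 1.47e-06); Znhit1 lies on the opposite strand across it, so that its count is uncertain. P4ha3, a catalytic subunit of prolyl 4-hydroxylase, rose from 14.1 ± 1.81 to 23.5 ± 3.35 CPM (0.000760). Mia3, which loads procollagen into transport carriers, rose from 234 ± 13.99 to 309 ± 17.98 CPM (4.61e-05). Bmp1, a protease that trims procollagen, rose from 4.04 ± 1.26 to 7.62 ± 1.38 CPM (0.0173), and did not pass on leaving out naive replicate 2, naive replicate 3, injury replicate 2 or injury replicate 4 (0.0582 to 0.0713).

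Pcolce2, which enhances that cleavage, was the fifth gene that rose, from 74.7 ± 6.30 to 92.9 ± 12.4 CPM (edgeR adjusted p = 0.0223); it did not pass with library totals or on leaving out any of naive replicates 3 and 4 and injury replicates 2 and 4 (0.0565 to 0.121). Without naive replicate 3, injury replicate 2 or injury replicate 4, the list held 3 genes that rose, and without injury replicate 1 it held 2 that fell, with Leprel4 as the second. Colgalt2, which adds galactose to collagen, fell from 94.1, 78.6, 77.05 and 75.2 CPM in the naive to 49.4, 63.9, 52.6 and 54.6 CPM in the injury libraries (log2 fold change -0.56 ± 0.09, adjusted p = 0.000152). Serpinh1, the collagen chaperone Hsp47, had 21.9 ± 1.36 and 22.9 ± 4.81 CPM, and Lox, a collagen crosslinking enzyme, 2.19 ± 0.624 and 2.65 ± 1.17 CPM; neither passed.

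Of 13 receptors for collagen and fibronectin 9 were tested, 3 rose and 0 fell, with a median log2 fold change of 0.38. Called genes were 33.3% of the 9, against 12.6% of all genes tested. The hyaluronan receptor Cd44, which also binds collagen, rose from 222 ± 5.93 to 360.4 ± 48.4 CPM (edgeR adjusted p = 5.07e-07), the integrin beta subunit Itgb1 from 240.0 ± 13.8 to 341 ± 22.7 CPM (2.15e-06) and the integrin alpha subunit Itgav from 6.57 ± 1.17 to 11.3 ± 3.18 CPM (0.0156). Itgav did not pass without naive replicate 4 (0.0515) or injury replicate 4 (0.133). With the replicate block Gpr56, a receptor for type III collagen, was also called higher (0.0347). Ddr1 and Ddr2, receptor kinases for fibrillar collagen, did not pass.

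Of 33 other matrix glycoproteins and proteoglycans, 26 were tested, and Fbln5, fibulin-5, an elastic fibre protein, rose from 43.7 ± 3.62 to 59.2 ± 6.55 CPM (edgeR adjusted p = 0.00275) while 0 fell; under some alternatives, DESeq2 among them, 1 fell, Agrn. The median log2 fold change was 0.04, and 3.85% of the 26 were called, against 12.6% of all genes tested. Of 12 collagen-cleaving proteases, 9 were tested, with a median log2 fold change of -0.11. Of these, 1 rose and 0 fell (11.1% called, against 12.6% of all genes tested). That was Mmp16, a membrane metalloproteinase, which measured 5.27, 10.8, 8.57 and 6.12 CPM in the naive and 17.5, 36.5, 23.4 and 31.4 CPM in the injury libraries, 3.52-fold higher (edgeR adjusted p = 0.000175). At an unadjusted edgeR p under 0.05, 3 of the 9 were higher and 1 lower. With the replicate block 3 of these proteases were called higher, Mmp14 (adjusted p = 0.0457) and Ctsb (0.0255) with Mmp16. Ctsb was also called higher by DESeq2 (adjusted p = 0.0225) and limma-voom (0.0249). Its count is uncertain because Fdft1 overlaps its 3′ end on the opposite strand. With library totals 1 was called lower, Mmp15.

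Genes of transforming growth factor beta signalling, a known driver of matrix genes in fibroblasts, were also examined. Smad4, the shared Smad of the pathway, rose from 44.2 ± 3.34 to 53.8 ± 4.58 CPM (edgeR adjusted p = 0.0474), and was called under 7 of the 16 alternatives. Smad7, an inhibitor of the pathway, had 6.71 ± 1.69 and 3.92 ± 0.748 CPM (edgeR adjusted p = 0.0503) and was called lower under 6 of the 16 alternatives, DESeq2 among them. Ctgf, a matrix-associated target of the same pathway, had 31.6 ± 14.2 and 24.6 ± 10.3 CPM (edgeR adjusted p = 0.732), and Tgfb1 was listed at 0 in all libraries.

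**Figure D5:**
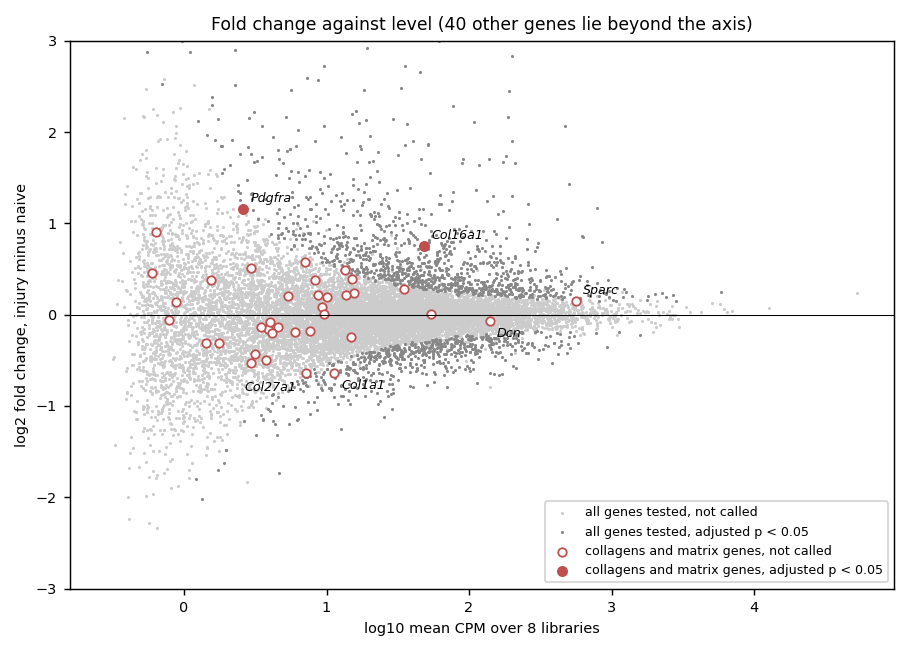
Log2 fold change, injury minus naive, against log10 mean CPM for the 13639 genes tested (grey, darker where called) and the 38 collagens and matrix genes (red, filled where called); 40 genes beyond 3 on the log2 axis are not drawn. Most red points lie in the band of genes that were not called, with Col16a1 and Pdgfra above it.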

How the data were processed

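Gene expression was measured in 4 naive and 4 injury libraries of mouse ganglia. The authors deposited raw counts for each gene symbol, as whole numbers without normalisation, a column for each library. The submitters' processing notes name bcl2fastq 2.17, STAR, HTSeq and the builds GRCm38 and mm10 (1 assembly). Annotation, strand setting and other versions: not given in the sources used here. Of 24060 rows, 27 had a symbol turned into a date (0.146% to 0.158% of counts) and were left out.

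Counts were tested with edgeR 4.0.16 in R 4.3.3 (filterByExpr, TMM, robust quasi-likelihood F-test, 8 libraries, no block). The method was tested on simulated data with unpaired libraries and the same spread for every gene. That test therefore does not cover paired libraries or genes of unlike spread. SEs were derived from the fold change and its F value, and 95% intervals from the SE, so that both are approximate. Also run were DESeq2 1.42.0, limma-voom (limma 3.58.1), a replicate block, scaling by library totals or DESeq2 size factors, other low-count filters (none, or 5 CPM on average), and fits without each library or without both of number 1. The design text says that both sides came from the same mice of a repeat, and the replicate number was taken as the repeat. Deviations from the group means correlated at 0.035 to 0.057 between libraries of the same number. Between injury and naive libraries of different numbers the correlations ran from -0.084 to 0.038.

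The members and gene lists were chosen with earlier results of these data known. Any member could be named; the rule added up to 4 called genes of each list, smallest p first, and the most abundant marker of marker lists. Other list genes named, such as Bmp1, Pcolce2, Smad7, Pdgfa, Ly6a, Dpt and Ibsp, fall outside the rule and were picked with their values in view. Of 197 list entries, 10 matched by a synonym in RefSeq. Gene positions come from GENCODE M21 (GRCm38), and promoter sequences are from RefSeq. GENCODE also places genes on the opposite strand of others named here, among them Colgalt2, Pcolce2, Mmp16, Itgav, Cd44 and Smad4. The counts of such genes carry the same uncertainty, although they are not marked in the Results. In the edgeR fit without block the lists for skeletal muscle, adipocytes, red blood cells, neurons, mural cells and macrophages gave 0 calls. DESeq2 and limma-voom also gave 0 there, and 3 of these genes had an unadjusted edgeR p under 0.05. The satellite glia list gave 1 call, Glul, higher. With the block Fabp7 of satellite glia was also called, lower (8.85e-05), and Uchl1 of neurons, higher (0.0269). Fabp7 was also called lower by limma-voom (adjusted p = 0.00613), though not by DESeq2. The edgeR fits with library totals (0.0325), without naive replicate 2 (0.0234) and without injury replicate 3 (0.000105) called it lower too. The results of 2 list genes, and the counts of 1 list, are not reported here.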

Additional observations from a re-analysis of the deposited data

Results flagged for a closer look

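In 4 of 106 sets of 4 libraries checked, 2 for each of 53 genes, a library lay far from the other libraries of its group by Dixon's criterion; chance flags about 1 in 20 such sets. Col16a1 was at 44.6 CPM in naive replicate 2, against 32.1 to 33.8 CPM in the other naive libraries; that library is still below every injury library, and without it the log2 fold change was 0.87. Col24a1, a fibrillar collagen, was at 1.45 CPM in injury replicate 4, against 0.462 to 0.605 CPM in the other injury libraries. Bmp1 was at 5.55 CPM in injury replicate 3, against 8.17 to 8.45 CPM. Itgav was at 16.05 CPM in injury replicate 4, against 9.55 to 9.86 CPM.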

How the results depend on the processing

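Across the 16 alternatives Col16a1 stayed called higher. The number of genes of the set called higher was 2; it was 3 with the replicate block, 1 with a mean of at least 5 CPM, where Pdgfra was not tested, and 1 to 4 when a library was left out. The number called lower was 0, and 0 to 1 when a library was left out. With library totals, 1001 genes of the whole table were called lower in place of 609; the cause was not tested. The replicate block changed no call of the set other than that of Postn. With that block, 1245 genes of the whole table were called higher and 779 lower, in place of 1108 and 609. Over the tested genes of the set and all alternatives, 578 results kept their side of the threshold, 6 passed it newly and 5, all of Pdgfra, no longer passed it; no called gene changed direction. Depth limits the genes under about 1 CPM, where 95% intervals are wide.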

Other observations

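The chains of type I collagen did not keep the same ratio in all libraries. Counts of Col1a2 were 3.13, 3.96, 3.93 and 5.64 times those of Col1a1 in naive replicates 1 to 4 and 5.93, 5.50, 8.49 and 5.95 times in injury replicates 1 to 4, so that the groups overlapped through naive replicate 4 and injury replicate 2. The corresponding ratio of Col6a1 to Col6a2 was 0.723 to 1.17 in the naive and 1.03 to 1.70 in the injury libraries. These ratios were chosen after the values were seen and were not tested.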
